A study of Homo sapiens with 16 samples.

Results

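The 42 genes described here encode proteins of mitosis, with the kinetochore as their largest group. They were taken from a list of gene symbols, and all 42 were found among the 20114 genes of the deposited count table and passed the filter on low counts that left 14035 genes. RNA was sequenced from 2 human cell lines, Hs578, whose source label is breast cancer cells, and TT642, whose source label is rhabdoid tumor cells although the series design counts both lines as TNBC (triple-negative breast cancer). For each of them there were parental cells, which hold no hairpin, and 3 derived lines, each with 1 tetracycline-inducible short hairpin RNA (shPRRX1_1, shPRRX1_2 or shPRRX1_3, called hairpins 1 to 3 below) against PRRX1, a homeobox transcription factor of mesenchymal cells. Every one of these was grown without doxycycline and with 3 µg/ml doxycycline, the drug that switches the hairpin on, which gave 16 libraries in 8 groups: 3 libraries in each of the 4 hairpin groups and 1 library in each of the 4 parental groups. The hairpin lines therefore carry the hairpin in both states, no line with a hairpin against another target is used here, and the parental cells show what doxycycline does without a hairpin. The 3 hairpins were treated as replicates, which nothing in the labels says were separate cultures, so the p-values measure the spread between hairpin lines, which holds differences between hairpins as well as technical spread.

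In mitosis, cyclin B and CDK1 drive entry, and centromeres carrying CENPA, a variant of histone H3, build the kinetochore, whose NDC80 complex grips spindle microtubules. The checkpoint kinases and their partners hold the anaphase-promoting complex back until all chromosomes are attached, and CDC20 and UBE2C then serve this ubiquitin ligase in destroying cyclin B. Most of these genes are transcribed late in the cell cycle, through the MuvB complex with B-MYB and FOXM1, which acts at promoters that hold a short cell cycle homology region (CHR), often beside CCAAT boxes bound by NF-Y. Their RNA is therefore read in tumour lines as a sign of how many cells are dividing.

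Those promoter elements are shown here because the members share them. RefSeq promoter sequences on GRCh38.p14, which run from 250 bases before to 50 bases after each gene's start, were matched by symbol for 34 of the 42 genes, and UBE2C, AURKA, BIRC5, BUB3, TTK, CENPM, TPX2 and FOXM1 had no entry. The expression files were made on hg19, and no coordinate of theirs is used. Searched on both strands, the CHR hexamers TTTGAA or TTTAAA stood in 27 of the 34 windows (79.4%) and in 24% of all 35116 windows of the table. CCAAT stood in 25 of the 34 (73.5%) against 34.6% of all windows, and CHR and CCAAT together in 21 (61.8%) against 9.27%. The E2F motif TTTGGCGC or TTTCGCGC was found in 2 (5.88%), against 1.15% of all windows. TTTAAA is its own reverse complement, so it was counted once per position. A match describes the letters of a window and is not a shown binding site. A window without a match does not show that the gene lacks the element.

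The last 130 bases before the start of 5 members are printed 5′ to 3′ on the gene's strand, with CHR and CCAAT matches in capitals (a CCAAT box on the other strand reads ATTGG). CCNB2, PLK1 and MKI67 hold CHR and CCAAT together, KIF20A is the member with the largest difference between the lines, and CENPT is the member that was called higher with hairpin induction in each line.
CCNB2 (chr15:59105016-59105145, plus strand): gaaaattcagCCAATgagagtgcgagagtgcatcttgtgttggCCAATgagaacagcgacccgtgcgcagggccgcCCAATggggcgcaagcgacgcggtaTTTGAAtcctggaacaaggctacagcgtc
PLK1 (chr16:23678759-23678888, plus strand): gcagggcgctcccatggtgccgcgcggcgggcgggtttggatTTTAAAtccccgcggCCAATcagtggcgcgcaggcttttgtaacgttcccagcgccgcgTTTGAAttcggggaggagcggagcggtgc
KIF20A (chr5:138178982-138179111, plus strand): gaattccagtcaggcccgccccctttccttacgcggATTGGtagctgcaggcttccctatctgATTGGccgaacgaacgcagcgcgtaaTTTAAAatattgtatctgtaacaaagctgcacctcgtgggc
MKI67 (chr10:128126424-128126553, minus strand): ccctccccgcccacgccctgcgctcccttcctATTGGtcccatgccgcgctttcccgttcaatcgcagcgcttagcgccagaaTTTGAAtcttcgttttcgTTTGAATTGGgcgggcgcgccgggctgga
CENPT (chr16:67847694-67847823, minus strand): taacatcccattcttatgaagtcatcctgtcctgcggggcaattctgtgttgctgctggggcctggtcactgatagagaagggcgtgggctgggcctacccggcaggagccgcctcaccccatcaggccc
In CCNB2, encoding a B-type cyclin, the CHR begins 29 bases before the start, downstream of CCAAT boxes at 54, 87 and 120 bases. PLK1, which encodes a kinase of mitotic entry and exit, has CHR matches at 29 and 88 bases and a CCAAT box at 73 bases. In KIF20A, a kinesin of the central spindle, the TTTAAA form lies 41 bases before the start, with reversed CCAAT boxes at 67 and 94 bases. MKI67, which encodes the Ki-67 coat of mitotic chromosomes, has CHR matches at 29 and 47 bases, the nearer of which shares 1 base with a reversed CCAAT box. The CENPT window held no match to CHR or CCAAT, and neither did those of CDC25B and CDC25C. CCNA2, AURKB, BUB1 and SPC24 had CCAAT but no CHR match.

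Total counts ran from 13461527 to 24672906 per library. PRRX1 checked the labels: with doxycycline it was left at 12.7%, 32.1% and 19.5% of its level without it in Hs578 hairpin lines 1 to 3 and at 21.8%, 13% and 39.4% in those of TT642, while it stood at 103% in the parental cells of each line. The markers of a mesenchymal-like breast line (VIM, CD44, SPARC, FN1 and CDH2) were abundant in Hs578, and EPCAM, CDH1 and ESR1 reached at most 0.607 CPM (a gene's counts relative to the total of its library, in the usual counts-per-million unit after TMM scaling by edgeR) and PGR at most 3.5 CPM in any library. In TT642, FN1 stood at only 0.194 to 3.96 CPM and SPARC at 19.4 to 45.4 CPM. The other markers of that list were present there, VIM at 9915 to 11007 CPM, CD44 at 157 to 480 CPM and CDH2 at 73.7 to 499 CPM. Loss of SMARCB1 typifies rhabdoid tumours. SMARCB1 RNA was detected in TT642 at 28.8 to 41.6 CPM, against 87.7 to 125 CPM in Hs578. Such RNA counts do not show whether the gene or its protein is intact, so they do not settle the source label. Among markers of cells the cultures should not hold, CD3E was at 0 in every library, PTPRC, VWF, CDH5 and ALB stayed under 1 CPM, and CD68 stood at 12.2 to 104.6 CPM. Reads of the 42 genes together made up 0.711% to 0.747% of all counts in the 4 libraries of Hs578 without doxycycline, 0.405% to 0.819% in the 4 with it, and 0.104% to 0.144% in the 8 TT642 libraries.

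All 42 genes were higher in Hs578 than in TT642. In the hairpin lines without doxycycline, edgeR's quasi-likelihood test with Benjamini-Hochberg adjustment called every one at an adjusted p of 0.00855 or less, with a median log2 fold change of 2.84 and a range from 0.39 to 5.54. Across all genes tested, 41% were called higher and 39.7% lower in this comparison, with a median log2 fold change of 0.01, so a call alone is common here. For 40 of the 42 genes all 8 Hs578 libraries lay above all 8 TT642 libraries, which held for 32.9% of all genes, and CDC25B and CENPT were the exceptions. In bulk RNA, fewer cells in mitosis and less mitotic RNA per cell cannot be told apart.

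**Figure D1:**
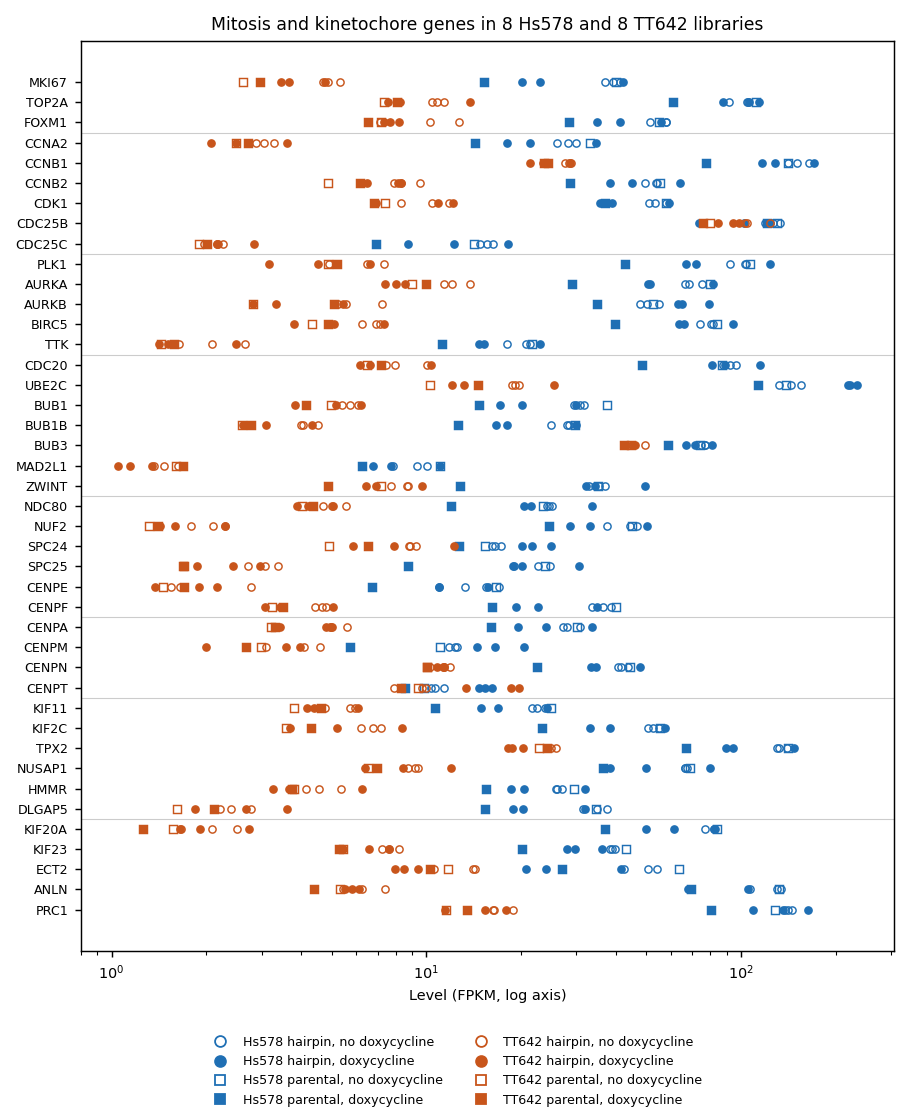
Level of each of the 42 genes in every library, in FPKM on a log axis, with circles for hairpin lines, squares for parental cells, open symbols without doxycycline and filled symbols with it. Hs578 (blue) lies to the right of TT642 (orange) for nearly every gene, CENPT and CDC25B overlap between the lines, and the filled blue square, Hs578 parental cells with doxycycline, is the leftmost blue symbol of most genes.

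The largest differences were in KIF20A, NUF2 and ANLN. KIF20A stood at 265, 249 and 256 CPM in the uninduced Hs578 hairpin lines 1, 2 and 3 and at 4.99, 5.25 and 6.29 CPM in those of TT642. The log2 fold change was 5.54 (SE 0.19, adjusted p = 8.57e-12), a 46.6-fold difference that the parental cells without doxycycline also showed, at 257 and 3.49 CPM. NUF2, the NDC80 complex subunit at the microtubule end, stood at 108, 83.7 and 98.8 CPM against 3.63, 4.76 and 4.17 CPM, a difference of 4.52 (SE 0.19, adjusted p = 4.04e-11). ANLN, an actin-binding scaffold of the cleavage furrow, stood at 559, 475 and 505 CPM against 28.1, 26.9 and 23.9 CPM, a difference of 4.28 (SE 0.14, adjusted p = 8.57e-13). In each of these genes the lowest Hs578 library was many times the highest TT642 library.

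The doxycycline-treated and parental libraries kept that distance. With doxycycline, KIF20A stood at 312, 243 and 214 CPM in the Hs578 hairpin lines and 149 CPM in the parental cells, against 4.94, 7.34 and 4.31 CPM and 3.70 CPM in TT642. NUF2 stood with doxycycline at 115, 80.6 and 73.9 CPM in the Hs578 hairpin lines and 3.26, 4.32 and 3.23 CPM in those of TT642, and without and with it in parental cells at 102 and 60.4 CPM against 2.74 and 2.88 CPM. ANLN stood with doxycycline at 513, 372 and 390.3 CPM and 21.3, 25.3 and 24.9 CPM, and in parental cells at 585 and 323 CPM against 18.1 and 20.9 CPM. The parental library with doxycycline was the lowest of Hs578 in all of these.

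The smallest differences were in CDC25B, CENPT and BUB3. CDC25B, a phosphatase that activates CDK1, stood at 433, 483 and 451 CPM in Hs578 and 326, 396 and 319 CPM in TT642, a log2 difference of 0.39 (SE 0.12, adjusted p = 0.00855). CENPT, which links centromeric DNA to the NDC80 complex, stood at 22.3, 24.7 and 22.6 CPM against 18.2, 15.7 and 18.8 CPM, a difference of 0.40 (SE 0.11, adjusted p = 0.00318). The calls of CDC25B and CENPT were lost when the fit used FPKM values or total-count scaling, and that of CENPT also without hairpin 2. BUB3, a checkpoint protein that also serves in interphase, stood at 137, 139.8 and 139 CPM against 73.6, 82.4 and 79.5 CPM, a difference of 0.82 (SE 0.08, adjusted p = 2.06e-07), and kept its call in all 16 alternatives. With doxycycline, CDC25B stood at 458, 421 and 319 CPM in the Hs578 hairpin lines and 307, 296 and 276 CPM in those of TT642, and the parental cells without and with it stood at 455 and 479 CPM against 258 and 242 CPM, so induced hairpin line 3 of Hs578 lay within the range of TT642. BUB3 stood with doxycycline at 140.0, 135 and 161 CPM in the Hs578 hairpin lines, with the parental cells at 129 and 121 CPM, and did not overlap TT642.

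By role, the median log2 difference was 3.61 for the mitotic kinases and passenger complex (PLK1, AURKA, AURKB, BIRC5, TTK), 3.02 for the outer kinetochore (NDC80, NUF2, SPC24, SPC25, CENPE, CENPF), 3.00 for cytokinesis (KIF20A, KIF23, ECT2, ANLN, PRC1) and 3.12 for MKI67, TOP2A and FOXM1. It was 2.85 for spindle motors and assembly factors (KIF11, KIF2C, TPX2, NUSAP1, HMMR, DLGAP5), 2.76 for the checkpoint and anaphase-promoting complex genes, 2.73 for the cyclins and CDK1 with its activators, and 1.74 for the centromere genes (CENPA, CENPM, CENPN, CENPT). PLK1 (4.14), DLGAP5 (3.87) and BIRC5, the survivin subunit of the passenger complex (3.76), followed the leading genes in size. SPC24, the NDC80 complex subunit at the kinetochore end, differed by 1.16 (SE 0.14), far less than its partners SPC25 at 2.92 (SE 0.17) and NDC80 at 2.47 (SE 0.15).

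The deposited FPKM values, which also scale by transcript length, allow levels to be compared between genes. Averaged over the 8 libraries of a line, UBE2C was highest in Hs578, at 170.1 FPKM in Hs578 and 16.7 in TT642, and CCNB1 followed at 137 FPKM in Hs578 and 25.8 in TT642. In TT642 the order was different: CDC25B led at 95.5 FPKM, with 116 in Hs578, and BUB3 came next at 45.1 FPKM. MAD2L1, the checkpoint protein that inhibits CDC20, was the lowest member in each line, at 8.78 FPKM in Hs578 and 1.41 in TT642. CENPT had the same mean FPKM in the lines, 12.1 and 12.1, but these means pool both doxycycline states. In the uninduced hairpin lines its mean was 10.8 FPKM in Hs578 and 9.17 in TT642. Neighbours in this order overlapped between libraries, as the plot of FPKM levels shows.

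Among Hs578 cells, the lowest levels were in the parental cells given doxycycline. In this pair of libraries 41 of the 42 genes were lower with doxycycline, with a median log2 change of -0.85 and a range from -1.32 to 0.07, and 35 were lower by more than 0.5, against 14.8% of all genes in the same pair. The exception was CDC25B. The parental pair has 1 library per condition, so the pair by itself was not tested, and the intervals below are exact binomial intervals that cover counting error only. They lay wholly below 100% of the level without doxycycline for 40 genes, above it for CDC25B, and over it for CENPT. For 40 of the 42 genes, all but CDC25B and ECT2, this library was the lowest of the 8 Hs578 libraries. No share over all genes was computed for this count or for the intervals, so neither is read as particular to the members. Of all 14035 genes, 7240 were lower with doxycycline in this pair by any amount. The share of mitochondrial transcripts was also higher in it, 4.16% of counts against 2.73% without doxycycline, and the part of that in the result was not tested.

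SPC25 fell furthest in the parental pair, with 30.1 and 12.01 CPM, which left 40% (95% interval 33.5% to 47.4%). MKI67 stood at 602 and 247 CPM, leaving 41.1% (95% interval 39.5% to 42.6%). ZWINT, which tethers the checkpoint's RZZ complex to the kinetochore, stood at 54.2 and 22.9 CPM, leaving 42.2% (95% interval 37.2% to 47.9%). These members were thus at well under their level without the drug. TOP2A, the topoisomerase that untangles sister chromatids, kept 59.9% (95% interval 58.2% to 61.6%), with 803 and 481 CPM, and CCNB1, which encodes cyclin B1, kept 59.5% (95% interval 56% to 63.1%), with 192 and 114 CPM. FOXM1, the transcription factor of the late cell cycle, kept 53.2% (95% interval 50.2% to 56.4%), with 209 and 111 CPM, and BUB1, a checkpoint kinase, kept 53.6% (95% interval 49.8% to 57.7%), with 132 and 70.9 CPM. CDK1, the kinase itself, fell less and kept 74% (95% interval 68.4% to 80%), with 94.3 and 69.8 CPM. UBE2C kept 87.8% (95% interval 81.8% to 94.2%), BUB3 93.9% (95% interval 88.2% to 99.9%) and CDC25B 105% (95% interval 102% to 109%), so these members moved little in this pair. Read by promoter, the 27 genes with a CHR match had a median change of -0.86 and a range from -1.32 to -0.43. The 7 without one had a median of -0.49 and a range from -1.07 to 0.07, a description with no test. Of these 7, CCNA2 (-1.07), CDC25C (-0.91) and BUB1 (-0.90) changed like genes with a match. AURKB (-0.49), SPC24 (-0.35), CENPT (-0.11) and CDC25B (0.07) changed less.

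No other pair showed a fall of this size. In the hairpin lines of Hs578 the member median was 0.21 for hairpin 1 (34 of 42 higher with doxycycline), -0.14 for hairpin 2 (32 lower) and -0.24 for hairpin 3 (34 lower). Falls of more than 0.5 log2 were seen in 0, 2 and 6 members, against 13.8%, 13% and 14.9% of all genes in these pairs. Mitochondrial shares rose in the same pairs from 2.79% to 3.18%, from 2.29% to 4.27% and from 2.16% to 5.44%. In the Hs578 parental pair, with its larger fall of the members, the share went from 2.73% to 4.16%. The part of these shares in the medians was not tested. In TT642 the parental median was 0.07, and 0 members fell by more than 0.5 log2, against 4.83% of all genes. For the parental TT642 pair the counting intervals held 100% for 35 genes, lay above it for 5 and below it for 2. TT642 hairpins 1, 2 and 3 had medians of -0.46, 0.06 and -0.25, with 19, 0 and 4 members lower by more than 0.5, against 6.78%, 8.7% and 4.2% of all genes. The median of all genes was 0.02 or less in size in each pair. With FPKM values in place of scaled counts, an alternative chosen after seeing the data, the median of Hs578 hairpin 3 moved from -0.24 to -0.49.

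**Figure D2:**
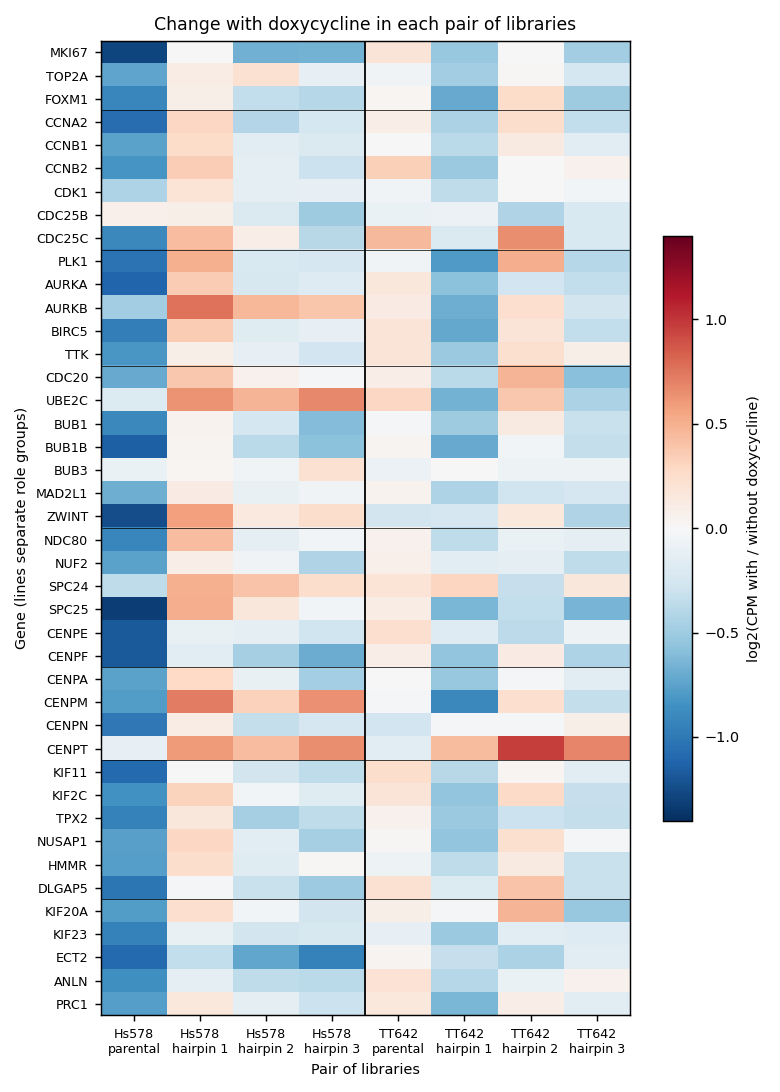
Log2 ratio of CPM with to without doxycycline for each member (rows, grouped by role) in each of the 8 pairs of libraries (columns), blue for lower and red for higher with doxycycline. The Hs578 parental column is blue in 41 of 42 rows, TT642 hairpin 1 is blue in 40, and CENPT is red in all 6 hairpin columns and in neither parental column.

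Induction of the hairpins in Hs578, as the mean of 3 induced against 3 uninduced libraries, left most of the 42 genes without a called change. The members that rose were UBE2C, AURKB, SPC24, ZWINT, CENPM and CENPT, 6 of 42 against 15.2% of all genes called higher. ECT2 fell, 1 of 42 against 14.1% of all genes called lower. The other 35 were not called, the median log2 fold change was -0.02, and the estimates ran from -0.64 to 0.59. At an unadjusted p under 0.05 there were 6 higher and 3 lower. The count of members called higher is thus near the share of all genes, and the count called lower is below it. With the replicate block, which compares each hairpin line with itself, MKI67, CENPF and ANLN were called lower in addition, and 10 members were called. Over all genes 2139 were called higher and 1979 lower. With total-count scaling the split was 1597 and 2454 and the member median -0.08. With limma on log2(FPKM + 1) the split was 1352 and 3112 and the member median -0.23. That fit changes the unit, the quantification of reads and the test together. The same 6 genes were the members with all 3 induced above all 3 uninduced libraries (22.1% of all genes), and ECT2 and KIF23 those with all 3 below (21.9%).

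UBE2C, the ubiquitin-conjugating enzyme of the anaphase-promoting complex, stood in hairpin lines 1, 2 and 3 at 104, 121 and 111 CPM without doxycycline and at 161, 168 and 177 CPM with it. It rose by a log2 fold change of 0.59 (SE 0.16, adjusted p = 0.0158), from 112 ± 8.52 CPM to 169 ± 7.99 CPM (SD, n = 3, edgeR). The induced libraries lay above all others of the line, with the parental cells at 105 and 92.4 CPM without and with doxycycline. UBE2C has processed pseudogenes, and the sources used here do not say how reads of such copies were assigned. AURKB, the kinase of the chromosomal passenger complex, stood at 55.1, 60.8 and 63.9 CPM without doxycycline and at 93.1, 83.9 and 83.5 CPM with it, a rise of 0.53 (SE 0.12, adjusted p = 0.00538) by edgeR, while the parental cells stood at 59.7 and 42.6 CPM. Its rise was 1.45-fold on average, and the call was lost with FPKM values and without hairpin 3.

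CENPM, a subunit of the inner kinetochore's CENP-H/I/K/M group, stood at 12.7, 12.9 and 11.3 CPM without doxycycline and at 20.9, 16.3 and 17.8 CPM with it, a rise of 0.57 (SE 0.17, adjusted p = 0.0204) by edgeR at a low level, and the parental cells stood at 11.02 and 6.34 CPM. SPC24 stood at 34.1, 32.7 and 34.5 CPM without doxycycline and at 48.1, 43.3 and 40.99 CPM with it, a rise of 0.39 (SE 0.13, adjusted p = 0.0424) by edgeR, with parental cells at 30.8 and 24.1 CPM. ZWINT stood at 51.8, 53.9 and 51.9 CPM without doxycycline and at 77.1, 59.1 and 61.5 CPM with it, a rise of 0.33 (SE 0.12, adjusted p = 0.048) by edgeR. The last pair sat close to the threshold: SPC24 lost its call in 14 of 18 alternatives, with adjusted p from 0.0176 to 0.151, and ZWINT in 15 of 18, with adjusted p from 0.0404 to 0.666. ZWINT was high in induced hairpin line 1 and close to the uninduced level in hairpin lines 2 and 3. ECT2, the exchange factor that activates RhoA at the division plane, stood at 213, 171 and 193 CPM without doxycycline and at 167, 104 and 100.2 CPM with it. It fell by 1.56-fold, a log2 fold change of -0.64 (SE 0.17, adjusted p = 0.0166) by edgeR, and hairpin lines 2 and 3 reached the level of the parental cells with doxycycline, 108 CPM against 230.3 CPM without it.

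CENPT stood at 22.3, 24.7 and 22.6 CPM without doxycycline and at 33.7, 33.3 and 35.6 CPM with it, a rise of 0.56 (SE 0.11, adjusted p = 0.00218) by edgeR. The uninduced lines stood near the parental cells, at 21.1 and 19.4 CPM without and with doxycycline, and the induced groups did not overlap them. In the RefSeq annotation CENPT overlaps NUTF2, which encodes the importer of the GTPase Ran, and THAP11. NUTF2 stood at 108, 129 and 119.8 CPM without doxycycline and 188, 221 and 205 CPM with it in the Hs578 hairpin lines, a log2 fold change of 0.78 (SE 0.08, adjusted p = 0.00013 by edgeR), and at 117 and 119 CPM in the parental cells. The sources used here do not say whether counting used strand. Reads from the stretch that CENPT and NUTF2 share therefore cannot be told apart, and their part in the rise was not tested. THAP11 had a log2 fold change of 0.00 (SE 0.13). NUTF2 and THAP11 were looked at after CENPT was seen to change.

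The leading cell cycle genes showed no called change in Hs578. MKI67 stood at 646, 599.9 and 548 CPM without doxycycline and at 645, 376 and 347 CPM with it, an estimate of -0.39 (SE 0.20, adjusted p = 0.167) by edgeR that joins 1 line without change to 2 lines with lower levels. TOP2A stood at 793, 676 and 758 CPM without doxycycline and at 849.9, 783 and 702 CPM with it, an estimate of 0.07 (SE 0.13), and CCNB1 at 196, 204 and 207 CPM without doxycycline and at 235, 183 and 180.0 CPM with it, an estimate of -0.02 (SE 0.12). CDK1 stood at 94.7, 91.98 and 95.9 CPM without doxycycline and at 108, 83.4 and 88.5 CPM with it, and its estimate was -0.01 (SE 0.13). FOXM1 stood at 205, 219 and 206 CPM without doxycycline and at 217, 173 and 156 CPM with it with an estimate of -0.21 (SE 0.15), and BUB1 at 131, 116 and 134 CPM without doxycycline and at 136, 97.3 and 88.2 CPM with it with -0.25 (SE 0.17). In each of these the induced library of hairpin 1 was the highest of the 3 induced libraries, and the SD over the induced hairpin libraries was larger than that over the uninduced ones.

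**Figure D3:**
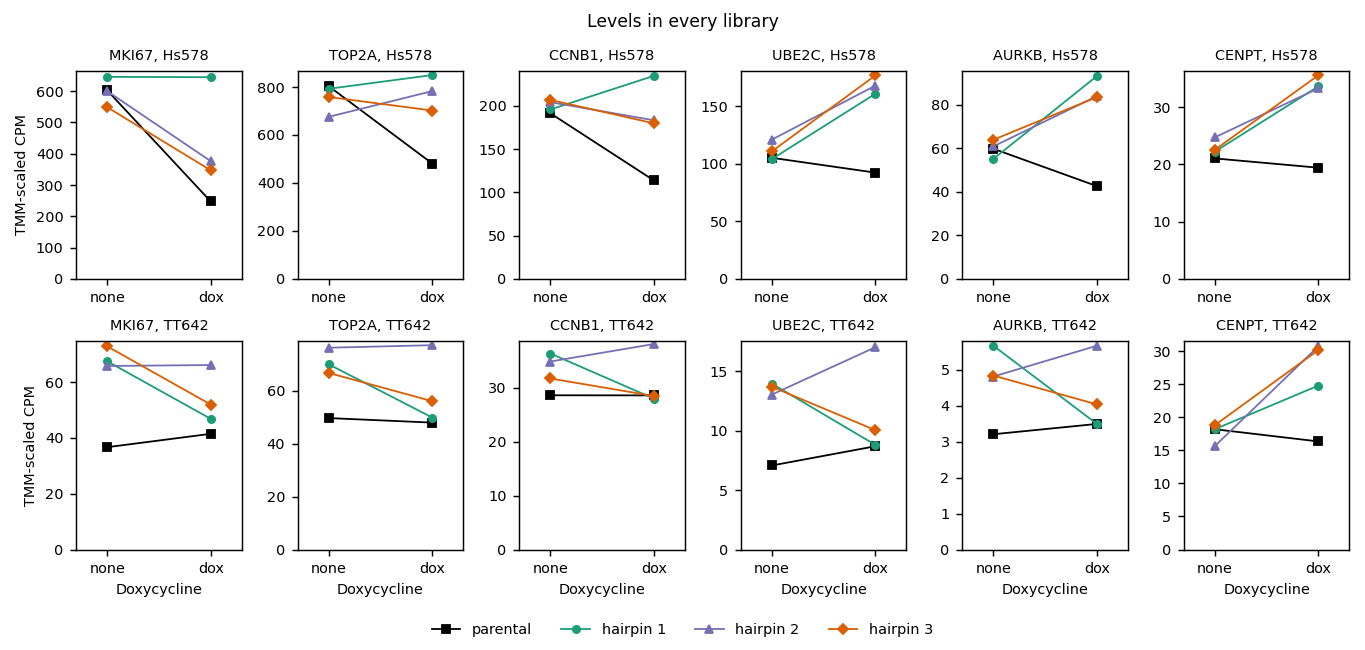
Level of 6 members in TMM-scaled CPM without and with doxycycline, in Hs578 (top) and TT642 (bottom), with 1 line per pair of libraries and axes from 0. In Hs578 the parental line (black) falls for MKI67, TOP2A and CCNB1 while the hairpin lines diverge, all 3 hairpin lines rise for UBE2C, AURKB and CENPT, and CENPT also rises in all 3 TT642 hairpin lines.

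By role, 0 of the 6 cyclin and CDK1 genes were called in Hs578 (median -0.02), 1 of the 5 mitotic kinase and passenger genes (0.04), 2 of the 7 checkpoint and anaphase-promoting complex genes (0.07), 1 of the 6 outer kinetochore genes (0.00), 2 of the 4 centromere genes (0.24), 0 of the 6 spindle genes (-0.13), 1 of the 5 cytokinesis genes (-0.19) and 0 of the 3 others (-0.21). All 5 cytokinesis estimates were negative, from ECT2 at -0.64 to KIF20A just under 0. The count of called members changed with the hairpins used, as did the 4118 calls over all 14035 genes. Without hairpin 3, 0 members and 840 of 13965 genes were called, and without uninduced library 1, 2 members and 2253 of 14018 genes. Without only the induced or only the uninduced library of hairpin 3, 3 members were called, with 2680 of 14006 and 2898 of 14022 genes. Without induced library 1, 11 members and 4768 of 14019 genes were called. Of these members, MKI67, BUB1, BUB1B, CENPF, CENPN, TPX2, ECT2 and ANLN fell, and the member median then was -0.19.

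In TT642 a rise of CENPT was the only called change among the 42 genes, 1 of 42 where 0.0143% of all genes (2 of 14035) were called higher. No member was called lower, against 0.0143% of all genes, and at an unadjusted p under 0.05 there were 1 higher and 4 lower. DESeq2 also called CENPT alone. CENPT stood at 18.2, 15.7 and 18.8 CPM without doxycycline and at 24.8, 30.7 and 30.2 CPM with it, a log2 fold change of 0.71 (SE 0.11, adjusted p = 0.0441) by edgeR, with no overlap between the groups, and the parental cells stood at 18.2 and 16.3 CPM. NUTF2 stood at 111, 110.4 and 103 CPM without and 143, 143 and 134 CPM with doxycycline in the TT642 hairpin lines (log2 fold change 0.37, adjusted p = 0.168 by edgeR), and THAP11 at -0.28 was not called. The call of CENPT was lost in 10 of 18 alternatives, with adjusted p from 4.27e-05 to 0.425, 8 of which leave out a library or a hairpin.

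Of the 42 estimates in TT642, 36 were negative and the median was -0.18, beside 0.00 for all genes. In 7 members, CDC25B, AURKA, MAD2L1, SPC25, KIF23, TPX2 and ECT2, all 3 induced libraries lay below all 3 uninduced ones (6.31% of all genes), and in CENPT alone above (8.54%). SPC25 had the largest negative estimate, with 3.06, 3.79 and 4.23 CPM without doxycycline and at 1.93, 2.97 and 2.65 CPM with it and a log2 fold change of -0.53 (SE 0.19, adjusted p = 0.467) by edgeR. AURKA, the spindle pole kinase, had -0.40 (SE 0.13), and TPX2, its activator, -0.38 (SE 0.13). MKI67 stood at 67.5, 65.8 and 72.8 CPM without doxycycline and at 46.8, 66.1 and 51.97 CPM with it, with the induced libraries of hairpins 1 and 3 lower and that of hairpin 2 unmoved. TOP2A stood at 69.96, 76.2 and 66.7 CPM without doxycycline and at 49.9, 77.2 and 56.05 CPM with it, and BUB1 at 20.98, 22.3 and 23.2 CPM without doxycycline and at 14.8, 24.3 and 18.7 CPM with it. The parental cells stood without and with it at 49.7 and 47.9 CPM for TOP2A, 17.3 and 16.9 CPM for BUB1 and 2.09 and 2.26 CPM for SPC25. Without hairpin 2 the median was -0.33 and without hairpin 1 it was -0.06, so its size depends on the hairpins used.

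SPC24, ZWINT and CENPM, which were called in Hs578, were not called in TT642 and stood at lower levels there. SPC24 stood in TT642 hairpin lines 1, 2 and 3 at 16.04, 15.8 and 13.4 CPM without doxycycline and at 19.8, 12.6 and 15.00 CPM with it, with parental cells at 9.997 and 11.4 CPM. ZWINT stood at 11.2, 10.8 and 11.8 CPM without doxycycline and at 9.53, 11.99 and 8.81 CPM with it, with parental cells at 9.90 and 8.27 CPM. CENPM stood at 4.03, 3.11 and 3.89 CPM without doxycycline and at 2.11, 3.67 and 3.08 CPM with it, with parental cells at 2.51 and 2.47 CPM. The induced and uninduced hairpin libraries overlapped in each of these genes. CDK1 stood at 15.8, 16.4 and 12.02 CPM without doxycycline and at 12.4, 16.5 and 11.7 CPM with it, with parental cells at 10.97 and 10.6 CPM. CCNB1 stood at 36.4, 34.9 and 31.8 CPM without doxycycline and at 28.04, 38.2 and 28.5 CPM with it, with parental cells at 28.6 and 28.6 CPM. FOXM1 stood at 35.7, 25.2 and 37.3 CPM without doxycycline and at 21.8, 30.1 and 26.3 CPM with it, with parental cells at 21.7 and 22.2 CPM. Here too the groups overlapped, and in CDK1, CCNB1 and FOXM1 induced hairpin line 2 was the highest of the 3 induced libraries, as it was in MKI67, TOP2A and BUB1.

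Among the 42 genes, the hairpin effect was called different between the lines for AURKB alone. The test of the difference, Hs578 minus TT642, gave 0.74 (SE 0.20, adjusted p = 0.0475) by edgeR, with TT642 hairpin lines 1, 2 and 3 at 5.67, 4.81 and 4.84 CPM without doxycycline and at 3.497, 5.67 and 4.04 CPM with it and parental cells at 3.21 and 3.49 CPM. This was 1 of 42 members, where 2.76% of all genes were called higher in Hs578 and 2.48% lower. The count of members called is thus near the share of all genes. No member was called lower, and at an unadjusted p under 0.05 there were 6 higher and 0 lower. By edgeR, CENPM came next at 0.87 (SE 0.26, adjusted p = 0.063), then SPC25 at 0.76 (SE 0.24, adjusted p = 0.0757) and UBE2C at 0.76 (SE 0.24, adjusted p = 0.08), none of them called. AURKB lost its call in 16 of 23 alternatives, 13 of them by leaving out a library or a hairpin, with adjusted p from 0.0163 to 0.369 and log2 differences from 0.43 to 1.10. DESeq2 called 3 members (UBE2C, AURKB and CENPM), and so did the fit with the replicate block (UBE2C, AURKB and SPC25), all of them higher. Without the induced library of Hs578 hairpin 1, ECT2 was called lower beside AURKB. For CENPT the difference between the lines was -0.14 (SE 0.15, adjusted p = 0.597) by edgeR and was not called. Over all genes 387 were called higher and 348 lower, against 249 and 432 with total-count scaling and 329 and 789 with limma on log2(FPKM + 1).

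Setting the Hs578 hairpin effect against the change in the parental pair gave positive estimates for 41 of the 42 genes, CDC25B being the exception at -0.26 (SE 0.25). The median was 0.78, beside 0.00 for all genes, and the estimates ran up to 1.57. These estimates share the parental libraries and so move together with the 1 parental library with doxycycline, and the comparison has no value without it. Each parental arm is 1 library, so the parental change has no replicate check, and the standard errors and p-values below take its spread from the hairpin groups and hold only if parental cultures vary like them. In all, 2 members were called, ZWINT at 1.57 (SE 0.24, adjusted p = 0.0205) and SPC25 at 1.55 (SE 0.30, adjusted p = 0.0407) by edgeR, 2 of 42 where 0.292% of all genes were called higher. None was called lower, against 0.114% of all genes. DESeq2 called 0 lower as well. SPC25 stood at 27.8, 26.6 and 30.00 CPM without doxycycline and at 39.6, 29.8 and 29.2 CPM with it in the Hs578 hairpin lines and at 30.1 and 12.01 CPM in parental cells, so the induced hairpin lines all lay above the parental cells with doxycycline.

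That order was general. In 40 of the 42 genes all 3 induced Hs578 hairpin libraries lay above the parental library with doxycycline, which held for 31.7% of all genes, with CDC25B and ECT2 as the exceptions. By edgeR, AURKA at 1.12 (SE 0.24, adjusted p = 0.0632), AURKB at 1.02 (SE 0.24, adjusted p = 0.0854), CENPM at 1.37 (SE 0.35, adjusted p = 0.102) and NDC80 at 1.03 (SE 0.27, adjusted p = 0.108) came next without being called. The mitotic kinases had the highest median of the role groups at 1.02, followed by the outer kinetochore genes at 0.88, and the cytokinesis genes had the lowest at 0.69. Across all genes, 41 higher and 16 lower calls became 27 and 30 with limma on log2(FPKM + 1), and 16 and 14 with total-count scaling. The count of member calls depended on the fit as well: DESeq2 called 5 members, the fit with the replicate block 5 (AURKA, SPC25, ZWINT, CENPE and KIF11), and the fits on FPKM values or on the libraries of the line alone 0. It was also 0 without hairpin 1, without hairpin 3, or without uninduced library 1 or 3, it was 1 without hairpin 2 or uninduced library 2, and it was 4 without induced library 2. In each of these settings 41 of the 42 estimates were positive. All of them use the same parental library with doxycycline, so this count is no check of that library. Across the 42 genes, the hairpin effect in Hs578 and the change in the parental pair, which share no library, had a Pearson correlation of 0.46 and a Spearman correlation of 0.43, a description over genes, which are not independent.

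**Figure D4:**
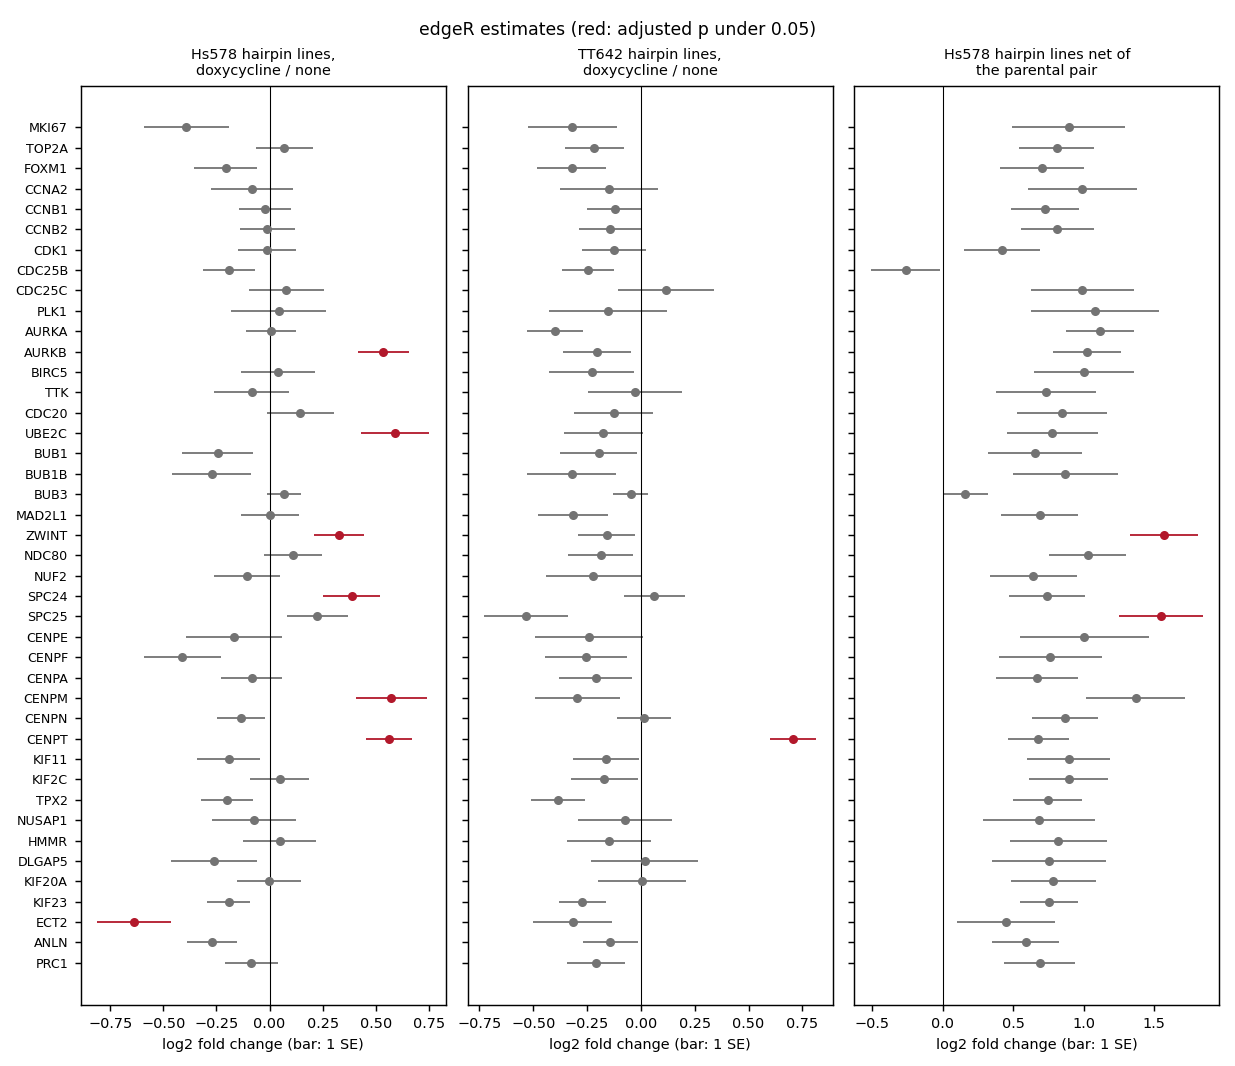
edgeR log2 fold changes of the 42 genes, with bars of 1 standard error, for hairpin induction in Hs578 (left), hairpin induction in TT642 (middle) and hairpin induction in Hs578 net of the parental pair (right), with calls at an adjusted p under 0.05 in red. There are 7 red points on the left, CENPT alone in the middle, and ZWINT and SPC25 on the right, where 41 of the 42 points lie above 0.

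The TT642 hairpin lines had higher levels of several members than the TT642 parental cells, averaged over both doxycycline states. The members called higher were CCNB2, UBE2C, SPC24, CENPA, CENPT and KIF2C, 6 of 42 where 4.18% of all genes were called. None was called lower, against 4.83% of all genes. DESeq2 called 9 higher and 0 lower. The median was 0.35 with 38 of 42 estimates positive, beside 0.01 for all genes, and the range was -0.32 to 0.70. In 13 members all 6 hairpin libraries lay above both parental ones (14.8% of all genes), and in BUB3 and MAD2L1 below (15.6%).

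UBE2C had the largest difference, with TT642 hairpin lines 1, 2 and 3 at 13.9, 13.03 and 13.7 CPM without doxycycline and at 8.80, 17.01 and 10.04 CPM with it and parental cells at 7.07 and 8.68 CPM, a log2 difference of 0.70 (SE 0.20, adjusted p = 0.0438) by edgeR. MKI67 had 0.66 (SE 0.22, adjusted p = 0.0834) by edgeR, with parental cells at 36.7 and 41.5 CPM. CENPA, the centromeric histone, stood at 7.43, 7.10 and 8.34 CPM without doxycycline and at 5.12, 6.97 and 7.46 CPM with it and at 4.60 and 4.57 CPM in parental cells, a difference of 0.63 (SE 0.18, adjusted p = 0.0459) by edgeR. CENPT differed by 0.38 (SE 0.11, adjusted p = 0.0455) by edgeR, and it was the induced hairpin libraries that stood above the parental ones, while the uninduced ones stood near them. At the other end, MAD2L1 stood at 9.01, 9.92 and 8.46 CPM without doxycycline and at 6.63, 8.18 and 7.16 CPM with it against 10.04 and 10.4 CPM, an estimate of -0.32 (SE 0.16, adjusted p = 0.224) by edgeR. BUB3 stood at 73.6, 82.4 and 79.5 CPM without doxycycline and at 73.4, 78.6 and 75.9 CPM with it against 87.6 and 82.5 CPM, an estimate of -0.14 (SE 0.08, adjusted p = 0.301) by edgeR. ECT2 stood at 29.7, 36.4 and 27.4 CPM without doxycycline and at 23.8, 26.8 and 24.5 CPM with it against 30.2 and 30.9 CPM, an estimate of -0.13 (SE 0.18, adjusted p = 0.718) by edgeR. None of these lower estimates was called. In Hs578, CENPA stood at 44.6, 45.5 and 49.5 CPM without doxycycline and at 53.99, 42.4 and 35.5 CPM with it in the hairpin lines and at 46.5 and 27.5 CPM in parental cells, and MAD2L1 at 69.7, 53.6 and 62.3 CPM without doxycycline and at 75.5, 49.9 and 60.3 CPM with it and at 73.1 and 45.5 CPM. The count of called members was 0 with FPKM values, 2 with the libraries of the line alone, and 0 without hairpin 3 or uninduced library 1. It was 2 without hairpin 2 or uninduced library 3, 3 without induced library 2 and 10 without induced library 1. Over all genes, the 1264 calls became 701 or 634 with FPKM values, 1053 with the line alone and 538 without hairpin 3. They became 885 without uninduced library 1, 1297 without hairpin 2, and 910 without uninduced library 3. Without induced library 2 there were 1180, and without induced library 1 there were 1101. Parental cells had 1 library per state, and these were assumed to vary like the hairpin lines.

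Other genes of mitosis and the cell cycle were read from 6 lists that hold none of the 42 genes. Their counts with hairpin induction in Hs578 stand beside 15.2% of all genes called higher and 14.1% called lower, and no list was tested against that share. With hairpin induction in Hs578, 4 of 28 other kinetochore and checkpoint genes rose and 4 fell, led by edgeR's adjusted p by PMF1, a subunit of the MIS12 complex (0.69, adjusted p = 0.0029), and ZWILCH, of the RZZ complex (-0.32, adjusted p = 0.0246). Of 17 anaphase-promoting complex genes and partners, 6 rose and 2 fell, with ANAPC11, its catalytic RING subunit, at 0.51 and ANAPC1, its scaffold, at -0.49. Among 21 condensin, cohesin and separation genes 1 rose and 6 fell, with PTTG1, securin, at 0.36 and STAG2, a cohesin subunit, at -0.43. Of 34 other spindle, kinase and cytokinesis genes 5 rose and 29 were not called, with TACC3, a spindle protein, at 0.47. Of 20 DREAM, MuvB and E2F regulators, 4 rose and 5 fell. MYBL2, which encodes B-MYB, rose from 131.7 ± 6.49 to 185 ± 28 CPM (SD, n = 3), a log2 fold change of 0.49 (adjusted p = 0.00492 by edgeR). E2F7, a repressor of E2F targets, fell from 170.1 ± 14.6 to 83.2 ± 9.26 CPM (SD, n = 3), a log2 fold change of -1.03 (adjusted p = 0.000124 by edgeR). Of 35 measured S phase genes, 7 rose and 1 fell, with CLSPN, a replication checkpoint adaptor, at 0.62 and GINS4, of the replicative helicase, at -0.34. PTTG1 and ANAPC1 have near-identical copies in the genome, and their counts are uncertain to that extent.

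The fall in the Hs578 parental pair extended to these lists. Their medians there were -0.68 for other kinetochore genes, -0.30 for the anaphase-promoting complex, -0.74 for condensin and cohesin, -0.80 for other spindle genes, -0.46 for the DREAM, MuvB and E2F regulators and -0.83 for S phase genes, of which 34 of 35 were lower. Net of the parental pair, 10 of 35 S phase genes were called higher, beside 0.292% of all genes, and all 35 estimates were positive. The other lists had 0 to 2 genes called higher and none lower. These calls rest on the 1 parental library with doxycycline, and over all genes the 57 calls of this comparison fell to 2 with the libraries of the line alone, 2 without hairpin 1 and 0 without hairpin 3, while there were 139 without hairpin 2. In TT642 the medians with hairpin induction ran from -0.24 for other spindle genes to 0.03 for the anaphase-promoting complex, and the parental medians ran from -0.04 to 0.07. Between the uninduced hairpin lines, where 41% of all genes were called higher in Hs578 and 39.7% lower, the calls were 25 higher and 1 lower of 28 other kinetochore genes, 11 and 4 of 17 for the anaphase-promoting complex, and 17 and 4 of 21 for condensin and cohesin. They were 30 and 1 of 34 other spindle genes, 29 and 5 of 35 S phase genes, and 8 and 11 of 20 regulators.

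**Figure D5:**
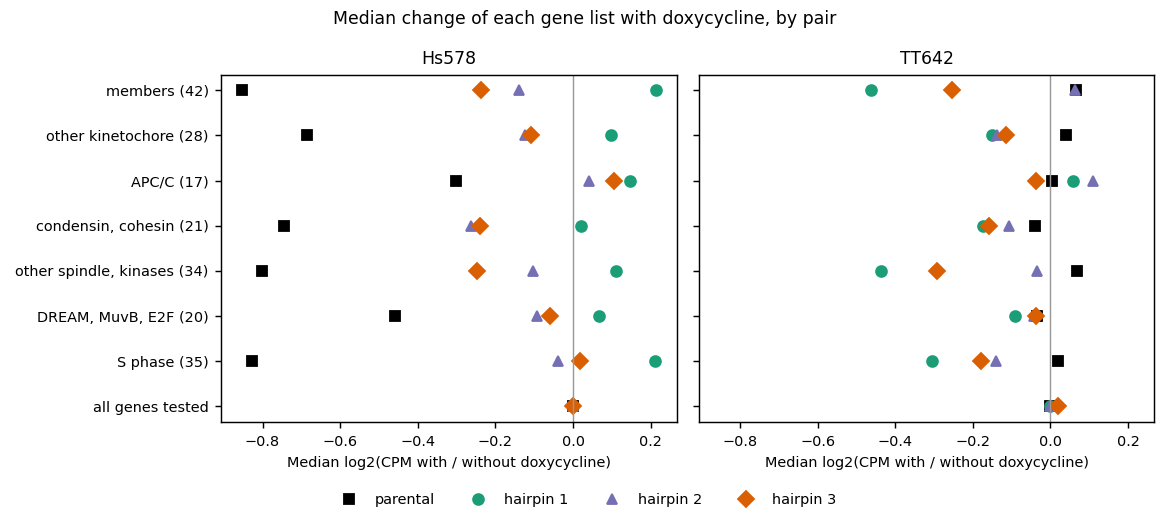
Median log2 ratio of CPM with to without doxycycline for the members, 6 other gene lists and all genes tested, in the 4 pairs of Hs578 (left) and the 4 pairs of TT642 (right), with the number of genes in parentheses. In Hs578 the parental pair (black squares) lies lowest for every list, from -0.85 for the members to -0.30 for the anaphase-promoting complex, and in TT642 the lowest point of the members is hairpin 1 at -0.46.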

How the data were processed

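RNA-seq was deposited for 16 libraries of Hs578 and TT642 cells. RNA came from Qiagen RNeasy columns and libraries from Illumina's TruSeq Stranded mRNA kit, per the labels' protocols. The authors deposited raw read counts by gene symbol in 1 table (20114 genes) and FPKM values in another (20111 genes), a unit that scales by depth and by transcript length. The FPKM values are not simply these counts rescaled. In TT642 parental cells without and with doxycycline, AURKB had 69 and 68 counts but 2.81 and 5.10 FPKM, with total counts of 20386835 and 18430501. A fit on FPKM values therefore also changes how reads were quantified. Per the submitters' processing notes the build was hg19. The sources used here do not name the aligner, the counting tool, the annotation or the use of strand, so reads of overlapping genes or near-identical copies could have been split or dropped in an unknown way, and 7 of the 42 genes overlap another gene of the count table. Column names matched the sample titles, and 0 columns were left unmatched. Every pair of libraries within a group differed by more than sampling noise, with a chi-square per degree of freedom of at least 5.35 over 12 pairs.

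The 42 genes, the lists and the settings were chosen with earlier results of these data known. The test on the counts was that of edgeR 4.0.16, in R 4.3.3 (quasi-likelihood test, TMM scaling, edgeR's default filter on the 8 groups, robust moderation, two-sided). All 16 libraries were fitted with 1 mean per group, leaving 8 residual degrees of freedom, so a parental library alone in its group was taken to vary as the hairpin groups do. Benjamini-Hochberg adjustment ran over 14035 genes for each of 6 comparisons, and genes were called at an adjusted p under 0.05. Counts at an unadjusted p under 0.05 were made for the members alone, so no share over all genes stands beside them. The standard error is the log2 fold change divided by the root of the F statistic. Ratios within pairs of libraries used a prior count of 2. Intervals for parental ratios are exact binomial (95%) and cover counting error only. The edgeR fit was tested on simulated counts with a known change, for the Hs578 hairpin comparison only. The other comparisons and steps were not simulated.

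Values in every library of both lines are given for members called in any of the first 4 comparisons, the 3 largest and 3 smallest differences between the lines and between TT642 hairpin and parental cells, and MKI67, TOP2A, CDK1, CCNB1, FOXM1 and BUB1. From each other list, the called gene with the smallest adjusted p per direction was named. Libraries with the same hairpin number come from the same derived line by their titles. As a check of that pairing, the deviations of paired libraries from their group's mean had correlations of 0.13, -0.03 and 0.00 (Hs578) and of 0.44, 0.42 and 0.42 (TT642). Between libraries of different hairpin numbers they ran from -0.11 to 0.11 (Hs578) and from -0.30 to -0.09 (TT642). Pairing was thus seen in TT642 and not in Hs578. The main fit leaves it out and the replicate block takes it in. Alternatives were relative log expression scaling, DESeq2 1.42.0, no low-count filter, limma 3.58.1 on log2(FPKM + 1) and log2(FPKM + 0.1), the replicate block, no robust moderation, the libraries of a line alone, total-count scaling (chosen after seeing the data) and leaving out each hairpin or library. Promoter sequences are RefSeq's, on GRCh38.p14.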

Additional observations from a re-analysis of the deposited data

Results flagged for a closer look

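The effect of hairpin induction on AURKB differed between the cell lines by a test of the difference itself. The log2 difference, Hs578 minus TT642, was 0.74 (SE 0.20, adjusted p = 0.0475 by edgeR), with AURKB higher in 3 of 3 induced Hs578 hairpin lines and lower in 2 of 3 of TT642. The adjusted p ran from 0.0163 to 0.369 over 23 alternatives, and the call was lost in 16 of them, among them total-count and relative log expression scaling.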

How the results depend on the processing

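No result changed direction in a called gene. Of the 42 genes, 7 were called with hairpin induction in Hs578 and 4 with log2(FPKM + 0.1), and leaving out hairpins or libraries gave 0 to 11. In TT642, 1 was called, 0 with log2(FPKM + 0.1) and with the libraries of the line alone, and 0 to 1 on leaving out. For the difference between the lines, 1 was called, 3 with DESeq2 and with the replicate block, 0 with relative log expression scaling, without robust moderation and with total-count scaling, and 0 to 3 on leaving out. Net of the parental pair, 2 were called, 5 with DESeq2 and with the replicate block, 1 with relative log expression and total-count scaling, 0 with either FPKM fit and with the libraries of the line alone, and 0 to 4 on leaving out. Between the lines, 40 to 42 were called in every setting. For TT642 hairpin lines against parental cells 6 were called, 0 with either FPKM fit, 2 with the libraries of the line alone, and 0 to 10 on leaving out. The replicate block could not be fitted for these last comparisons. It raised the counts of members for the difference between the lines and net of the parental pair, as given above. Apart from those it moved no count of members by over 1.5 times. The median of Hs578 hairpin 3 was -0.49 with log2(FPKM + 1), against -0.24. For FPKM values the median of all genes shifted by up to -0.12 in Hs578 induction and -0.15 between the lines, and by -0.16 between the lines with total-count scaling. Over all genes, the 4118 calls of Hs578 induction became 840 to 4768 on leaving out hairpins or libraries. The 4 calls of TT642 induction became 79 with DESeq2 and 46 with the block. Those of the difference between the lines (735) became 1425 with DESeq2, 1118 with log2(FPKM + 1) and 1763 with the block. Those net of the parental pair (57) became 296 with DESeq2, 140 with the block, 30 with total-count scaling, 13 with log2(FPKM + 0.1) and 2 with the line alone, and those of TT642 hairpin against parental cells (1264) became 701 and 634 with FPKM. In TT642 member levels of a few CPM, such as those of AURKB and SPC25, limit the precision. The cause of these shifts was not tested.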
